A study of Mus musculus with 4 samples.

Results

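The cells described here are smooth muscle cells of the mouse lung that carry UMIs (unique molecular identifiers, 1 per captured mRNA molecule) of Actc1, Sncg, Timp4, P2rx1 or Tcap. They were chosen by measured values. A cell within the quality limits (200 to 7500 genes and at most 15% mitochondrial UMIs) had to hold at least 3 UMIs of the smooth muscle myosin heavy chain gene Myh11 and none of Ptprc, Cdh5 or Epcam, which mark immune, endothelial and epithelial cells. Sum A was the number of UMIs of Timp4, Actc1, P2rx1, Sncg and Tcap, sum B that of Erbb4, Sost, Mylk4, Rcan2 and Ncam1, and sum C that of Hpse2, Lrrtm3, Ctnna3, Adam33 and Ntrk3. Cells with a sum A of at least 3 that was larger than both other sums were kept. They numbered 2686 of 30860 cells within the limits (32121 barcodes in all) and of 6586 Myh11-high cells. Among the other Myh11-high cells, 660 were led by sum B, 2635 were led by sum C and 605 belonged to none of the 3 groups. Levels of all these genes are therefore given as a description, with no test, although they stayed in the fits across all genes, where Sost is 1 of the 47 falls counted between genotypes.

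The study asked how loss of Tubb3, the gene of β-III tubulin, affects the fibrotic lung. Lungs were taken 14 days after 0.8 U/kg bleomycin, given into the trachea, from 2 WT and 2 Tubb3-/- mice, adult littermates of both sexes. Tubb3-/- mice were homozygous for a Tubb3-Cre knock-in, in which Cre stands at the start codon of Tubb3 in every cell of the body. All mice had bleomycin. A whole-cell library, from which red blood cells with TER-119 had been removed, was made for each mouse beside a mural cell-enriched library, from which endothelial (CD31), immune (CD45), epithelial (EpCAM) and red blood cells had been taken out. The latter was a mixture of sorted MCAM+ PDGFRα- cells and MCAM- cells in equal parts.

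Smooth muscle cells wrap arteries, veins and airways and set their diameter through a contractile apparatus of actin, myosin and the proteins that control them. The actin of Actc1 is the main actin of heart muscle and is also made in some smooth muscle. Timp4 encodes an inhibitor of matrix metalloproteinases, P2rx1 an ATP-gated cation channel through which nerves can constrict vessels, Sncg γ-synuclein and Tcap the titin cap protein of striated muscle. Smooth muscle cells can lower their contractile genes and raise matrix genes during injury. No file assigned these cells to arteries, veins or airways.

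The cells came from all 4 mice and both kinds of library. The whole-cell libraries of WT mice held 43 and 45 of them and those of Tubb3-/- mice 60 and 31, and the mural cell-enriched libraries 684 and 430 (WT) and 774 and 619 (Tubb3-/-). Per mouse, they carried between 5811399 and 13124532 UMIs, with a median per cell of 10928 and 10690 (WT) and 13044 and 12228 (Tubb3-/-). No barcode was shared between libraries of a pool, and 59 were shared between the 2 pools. Xist and Y-linked genes such as Ddx3y put both replicates 1 on the male side (Xist, 185 and 287 UMIs in the cells; Ddx3y, 950 and 1439) and both replicates 2 on the female side (Xist, 2977 and 4528; Ddx3y, 35 and 66), so the genotypes were balanced for sex.

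The genes that chose the cells were not spread evenly over them. A UMI of Actc1 was present in 99.1% to 99.4% of the cells of each mouse, Timp4 in 71.7% to 74.1%, Sncg in 59.2% to 73.9%, P2rx1 in 52.8% to 60.1% and Tcap in 51.5% to 61.1%. In 3814 immune cells of the whole-cell libraries (at least 3 Ptprc UMIs and none of Myh11, Cdh5, Epcam or Pdgfra), which should lack these genes, the highest share was 8.78% for Actc1 and 1.02% for Timp4, at a median of 7489 UMIs per cell against 11786 in the smooth muscle cells. The enriched libraries held few immune cells, so shares of immune cells here and below are those of the whole-cell libraries. They are a background only for genes that immune cells do not make themselves. All 5 genes were present together in 23.5% of the cells, 4 of them in 33.5%, and 1 of them in 6.89%. These shares follow in part from the rule. Of smooth muscle genes outside it, Acta2, Tagln and Des are described below.

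Sum A had a median of 42 UMIs per cell, with quartiles of 24 and 71 and a maximum of 409, and Myh11 had a median of 31 UMIs. Sum B was 0 in 22.8% of the cells and sum C in 3.35%. Most of the cells thus also carried UMIs of genes of the other sums. After thinning each cell to 5000 UMIs, 2626 cells remained, and UMIs of Actc1 and Timp4 occurred together in 55.8% of them, Actc1 and Sncg in 51.7%, and P2rx1 and Tcap in 17.9%. Actc1 was present in 96.1% to 97.5% of the thinned cells of each mouse, so its pairs mostly repeat the share of the partner. Spearman correlations between pairs of these genes were low, from 0.053 (Actc1 and Sncg) to 0.24 (Timp4 and P2rx1). The variance exceeded the mean for every gene in the sum, by 14.0 times for Actc1 (mean of 17.1 UMIs per thinned cell), 3.62 times for Tcap (0.973), 3.12 times for Sncg (1.46), 2.59 times for Timp4 (1.49) and 1.54 times for P2rx1 (0.622).

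At the edge of the rule, cells had less contractile and more matrix RNA than the average over the cells. The 50 cells with a sum A of 3 had 115 CPM (a gene's UMIs relative to all gene UMIs of the same cells) of Actc1 and 1738 CPM of Acta2, against 3074 and 14338 CPM over all 2686 cells. They had 3253 CPM of the collagen gene Col1a1, 1556 CPM of the matrix proteoglycan gene Dcn and 462 CPM of the fibroblast receptor gene Pdgfra, against 1277, 485 and 91.2 CPM. The 95 cells just outside, with a sum A of 2, were similar to those just inside, at 73.8 CPM of Actc1, 1083 CPM of Acta2, 2996 CPM of Col1a1, 1216 CPM of Dcn and 427 CPM of Pdgfra. Pdgfra and Dcn were singled out here after their values were seen.

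Cells with few Myh11 UMIs formed a second edge. Fewer than 10 Myh11 UMIs were found in 57 and 42 WT cells and in 82 and 58 Tubb3-/- cells, which is 7.84% to 9.83% of the cells of a mouse. Acta2, the gene of smooth muscle α-actin, had 3394 to 6066 CPM in these cells and 14419 to 16187 CPM in the others. A UMI of Pdgfra was found in 29.8% to 43.9% of the low-Myh11 cells and in 19.6% to 24.2% of the others. Over all the cells, a Pdgfra UMI was found in 6.98% to 12.9% of those in whole-cell libraries and, in mural cell-enriched libraries, in 21.5% and 22.1% of WT and 27.1% and 26.2% of Tubb3-/- cells.

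Levels in the cells were set against those in the other 2 Myh11-high groups. The means over the 4 mice were 3105 ± 335 (SD) CPM of Actc1 against 340 ± 70.0 CPM in cells led by sum B and 572 ± 85.7 CPM in cells led by sum C. Timp4 had 257 ± 28.4 CPM against 42.4 ± 13.5 and 94.0 ± 15.98, and Sncg 258 ± 35.8 CPM against 53.7 ± 11.8 and 101 ± 3.60. These genes separate the groups by construction. Tcap had 161 ± 29.7 CPM against 94.7 ± 20.7 and 53.0 ± 10.8, and P2rx1 108 ± 11.4 CPM against 23.2 ± 3.44 and 39.2 ± 8.89. Myh11, which all 3 groups had to carry, had 2591 ± 208 CPM against 1859 ± 278 and 1565 ± 246.

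Genes of the contractile apparatus were higher in these cells than in both other groups. Of 29 listed contractile genes that averaged 10 CPM or more, 24 were higher than in either other group in all 4 mice and 0 were lower, with a median log2 difference of 0.57 from cells led by sum B and 0.78 from cells led by sum C. Over all 9362 genes with that level, 11.0% were higher and 15.5% lower in this way. The groups were cut on expression in the same cells, so these differences are described and not tested. The other groups also held a larger share of cells with few Myh11 UMIs. In the enriched library of WT 1, 632 of 684 of these cells had at least 10, against 198 of 223 led by sum B and 448 of 662 led by sum C. The other enriched libraries had the same order. The part of this edge in the differences was not tested. Acta2 had 14391 ± 897 CPM against 9945 ± 1085 and 6650 ± 891. Tagln, which encodes the actin-binding protein transgelin, had 9594 ± 697 CPM against 6407 ± 770 and 5157 ± 661.

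Actg2, Ctxn1 and Ptp4a3 were the 3 genes outside the rule, of 3174 that averaged 50 CPM or more, that were more than doubled over the higher of the other groups in every mouse. Actg2, the gene of smooth muscle γ-actin, had 1412 and 1114 CPM in the cells of WT mice and 1546 and 1231 CPM in those of Tubb3-/- mice. The other groups had means of 513 ± 103 and 533 ± 93.9 CPM. No mouse's value in these cells overlapped with any value in the other groups, where the highest was 596 CPM. Ctxn1, which encodes the small membrane protein cortexin, had 56.7 ± 6.38 CPM against 24.4 ± 1.56 and 20.9 ± 2.71, and Ptp4a3, the gene of a protein tyrosine phosphatase, 230.5 ± 25.6 CPM against 87.3 ± 13.1 and 108 ± 12.5.

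Several of the other genes that led this ordering belong to filaments and to contraction. Des, the gene of the muscle intermediate filament desmin, had 1784, 1708, 1691 and 1665 CPM in WT 1, WT 2, Tubb3-/- 1 and Tubb3-/- 2, against 502 ± 78.4 CPM in cells led by sum B and 816 ± 40.9 CPM in cells led by sum C. Its 4 values were close together and all lay above those of the other groups. Its partner synemin (Synm) had 121 ± 13.0 CPM against 55.0 ± 9.49 and 60.0 ± 10.5. Ppp1r14a, which encodes an inhibitor of myosin phosphatase, had 1116 ± 123 CPM against 508.5 ± 70.1 and 605 ± 114. Cnn1 (calponin), Tpm2 (a tropomyosin), Csrp1 (a LIM domain protein of the actin cytoskeleton) and Abra (an activator of actin-dependent transcription) were also among them, with log2 ratios over the higher group of at least 0.57, 0.75, 0.79 and 0.65 in the lowest mouse. The small heat shock protein gene Hspb1 had 4207 ± 540 CPM against 2326 ± 323 and 2108 ± 267. Pcp4l1, Msrb1, Arl4d, Asb2, Ccdc107, Crip1, Tinagl1 and Pir completed the 20 leading genes with the endothelin receptor gene Ednrb.

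**Figure D1:**
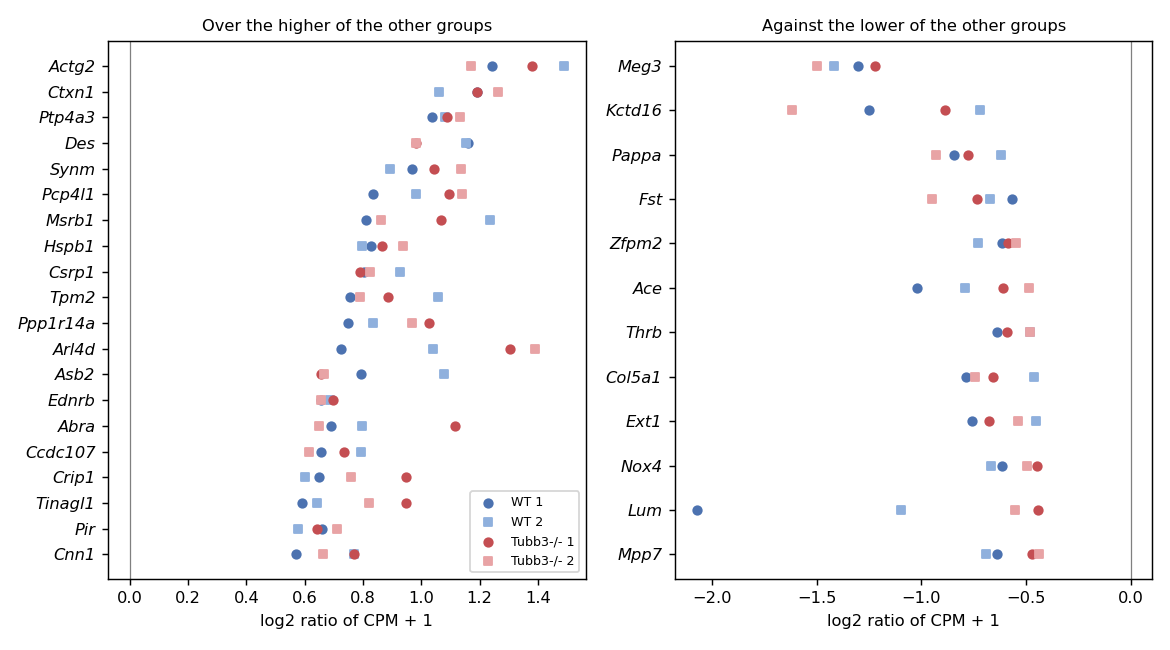
Log2 ratio of CPM + 1 per mouse, left for the 20 genes outside the rule that lead over the higher of the other 2 groups, and right for the 12 genes that lie lowest against the lower of them. The 4 points of a gene are the 4 mice, and all of them lie on the same side of 0, from at least 1.17 for Actg2 to at least 0.57 for Cnn1.

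Receptors for constrictors and channels were split between the groups. Ednrb, which binds endothelin, had 126 ± 26.5 CPM in these cells, 20.5 ± 4.51 CPM in cells led by sum B and 78.7 ± 17.2 CPM in cells led by sum C. Npy1r, a receptor for neuropeptide Y from sympathetic nerves, had 214 ± 16.4 CPM against 159 ± 3.55 and 104 ± 13.4. Of 19 listed receptor genes, 5 were higher than in both other groups in all mice and 1 was lower, against 11.0% and 15.5% of all genes. Cacna1c, which encodes the pore of the L-type calcium channel, had 644 ± 59.4 CPM, against 349 ± 28.7 CPM in cells led by sum B and 1418 ± 178 CPM in cells led by sum C. Notch3, the mural cell Notch receptor, lay between the groups as well, at 221 ± 15.4 CPM against 48.7 ± 6.81 and 289 ± 26.0.

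Markers listed for airway smooth muscle and peribronchial cells were split. Of 10 such markers, Des, Actg2 and the muscarinic receptor gene Chrm3 (16.9 ± 3.40 CPM against 3.73 ± 2.58 and 7.29 ± 6.50, named after its values were seen) were higher than in both groups in all mice, and 1 was lower, against 11.0% and 15.5% of all genes. Hhip, a binding protein of hedgehog ligands, had 184 ± 32.0 CPM, between 70.2 ± 16.1 CPM in cells led by sum B and 506 ± 118 CPM in cells led by sum C. The matrix protein gene Aspn had 351 ± 48.6 CPM, between 148 ± 47.5 and 763 ± 326. The pericyte marker Ndufa4l2 had 46.1 ± 16.3 CPM against 10.0 ± 3.82 and 117 ± 11.8, and 2 of 14 pericyte markers were higher in all mice. Of 12 cardiomyocyte markers, Myh6, Myl7, Tnni3 and Myl3 had no UMI in these cells in the whole-cell libraries, where the summed level of the list was 300.5 to 529 CPM. In the enriched libraries the summed level was 423 and 251 CPM in WT and 223 and 247 CPM in Tubb3-/- mice, highest in WT 1. Over both libraries Myl7, the atrial myosin light chain gene, had 232, 37, 44 and 12 UMIs in WT 1, WT 2, Tubb3-/- 1 and Tubb3-/- 2, Tnni3 151, 2, 9 and 9, and Myh6 28, 1, 6 and 4, in at most 2.76% of the cells of a mouse. Myl7, Tnni3 and Myh6 were singled out after their values were seen.

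Matrix genes were more often lower than higher in the cells. Of 53 listed matrix genes, 2 were higher than in both other groups in all mice and 19 were lower, against 11.0% and 15.5% of all genes. The median log2 differences were -0.46 from cells led by sum B and -0.31 from cells led by sum C. The larger share of cells with few Myh11 UMIs in the other groups applies here too, and its part was not tested. Col5a1, a fibrillar collagen, had 126 ± 27.6 CPM against 248 ± 89.1 and 202 ± 48.1. Lum, the proteoglycan lumican, had 66.2 ± 38.5 CPM against 138 ± 42.6 and 221 ± 129. The noncoding RNA Meg3 was the gene furthest below both groups, with 69.6, 59.5, 55.5 and 44.2 CPM in WT 1, WT 2, Tubb3-/- 1 and Tubb3-/- 2 against means of 156 ± 33.1 and 159 ± 18.7 CPM. Its values in these cells did not reach those of the other groups in any mouse. Nox4, an oxidase that makes hydrogen peroxide, had 195 ± 30.6 CPM against 328 ± 27.0 and 286 ± 34.1, and Kctd16, Pappa, Fst, Zfpm2, Ace, Thrb, Ext1 and Mpp7 completed the 12 lowest.

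Promoters were searched for the CArG box, the site that serum response factor binds with its cofactor myocardin at many muscle genes. RefSeq windows of 250 bases before the start, on GRCm38.p6, held an exact CArG box on either strand in 439 of 27025 promoters (1.62%). A box was found in 4 of 25 contractile genes with a window, in 1 of 17 leading genes (Asb2) and in 1 of 4 of the genes in sum A (Actc1). The sequences are shown for Actc1, for the leading gene with a box and for 2 contractile genes, as 30 bases on the strand of the gene with the box in capitals. The match describes the letters of these windows and not a bound site.
Actc1: gctaaggcgaCCAAATAAGGcaaggtggca
Asb2: agaaacatacCCATATATGGgctccatgtc
Myl9: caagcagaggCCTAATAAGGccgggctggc
Myl6: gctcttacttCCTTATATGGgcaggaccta
The first lies at chr2:114052903-114052932 on the minus strand, and its box starts 47 bases before the RefSeq start of Actc1. The window of Asb2, which encodes an adaptor that marks filamins for breakdown, is chr12:103356046-103356075 on the minus strand, with the box 64 bases before the start. Those of the myosin light chain genes Myl9 (chr2:156775293-156775322, plus strand) and Myl6 (chr10:128493040-128493069, minus strand) have it 161 and 50 bases before the start, for Myl6 that of 1 of its RefSeq starts. The windows of Actc1 and Myl6 lie inside the longer GENCODE spans of these genes, which begin further upstream.

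In GENCODE vM21 on mm10, Actc1 spans chr2:114047282-114053548, Sncg chr14:34370274-34374789, Timp4 chr6:115241892-115252205, P2rx1 chr11:72999103-73015200, Tcap chr11:98383811-98384953 and Myh11 chr16:14194535-14291372. Timp4 overlaps Syn2 and Actc1 overlaps the noncoding gene A530058N18Rik, so the counts of both are uncertain to that extent.

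The share of the cells among Myh11-high cells did not separate the genotypes. WT mice had 40.6% and 42.4% and Tubb3-/- mice 43.0% and 37.4%, with means of 41.5% ± 1.30 (SD, n = 2) and 40.2% ± 3.95 (SD, n = 2). The Tubb3-/- mice were the highest and the lowest of the 4, and the difference of -1.25 percentage points had p = 1 in an exact two-sided permutation test, which cannot go below 0.33 with 2 mice a group. Within whole-cell libraries the means were 44.0% ± 6.95 and 40.6% ± 3.24 (exact permutation p = 0.667), and within mural cell-enriched libraries 41.2% ± 0.822 and 40.2% ± 3.99 (exact permutation p = 1). Of all cells within the limits, the cells made up 1.26%, 1.44%, 1.44% and 0.897% in the whole-cell libraries of WT 1, WT 2, Tubb3-/- 1 and Tubb3-/- 2, and 17.2%, 12.4%, 16.1% and 14.0% in the mural cell-enriched ones, where the sort set the share.

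**Figure D2:**
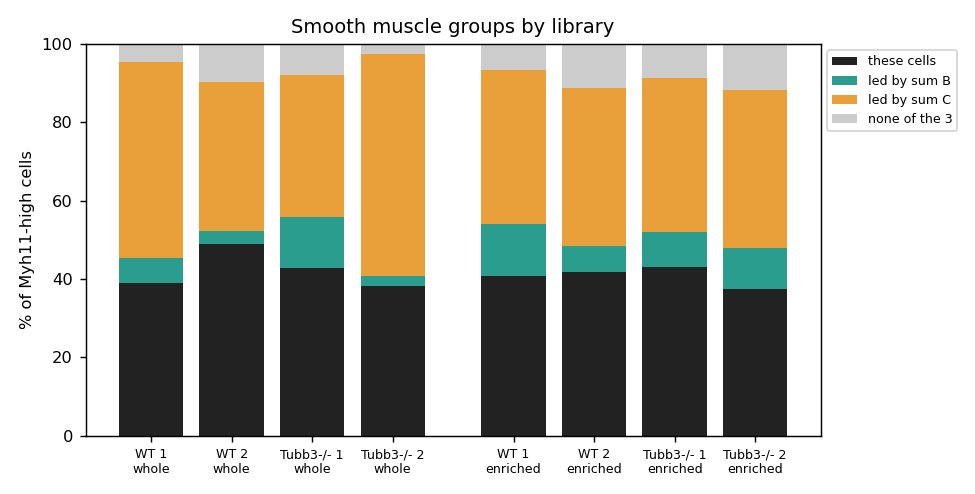
Share of Myh11-high cells (percent, stacked to 100) in each of the 8 libraries that belonged to these cells (black), to cells led by sum B (green), to cells led by sum C (orange) or to none of the 3 groups (grey). The black part lies between 37.4% and 48.9% in every library, with WT and Tubb3-/- libraries overlapping in both pools.

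Levels in these cells differed between the 2 kinds of library. Between libraries of the same mice, 375 of 11180 genes (3.35%) differed in these cells in edgeR's quasi-likelihood test at an adjusted p under 0.05, with 294 higher and 81 lower in mural cell-enriched libraries. Immune markers were lower there, 8 of 9 tested with a median log2 difference of -3.70. The neutrophil gene S100a9 had 16.9 to 29.5 CPM in the whole-cell libraries and no UMI in the enriched ones, the macrophage gene Chil3 98.7 ± 16.6 against 0.744 ± 0.231 CPM, and Scgb1a1, the secretoglobin of club cells, 633 ± 37.7 against 70.0 ± 37.5 CPM. Fibroblast markers were higher in the enriched libraries, 8 of 12 with a median of 2.04, and so were 5 of 6 mesothelial markers, with a median of 5.80. Genes such as Thbs4, Frmd5, Cilp, Gpm6a and the adventitial fibroblast gene Pi16 were higher as well, and Pi16 had 44.2 ± 17.0 CPM in enriched and 2.53 ± 3.002 CPM in whole-cell libraries. Of 53 matrix genes, 20 were higher in enriched libraries and 0 were lower. Of the contractile genes, Des was lower in enriched libraries (log2 difference -0.34 ± 0.08, SE), and the median of the list was -0.21. The summed level of 12 immune markers was 487 to 629 CPM in the cells of whole-cell libraries and 86.9 to 91.8 CPM in those of enriched ones, and the summed level of 12 fibroblast markers 548 to 1186 and 1723 to 2094 CPM. Their part in the differences was not tested.

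Tubb3 itself was measured first. The cells of the WT mice held 77 and 54 Tubb3 UMIs and those of the Tubb3-/- mice 12 and 6, or 8.85, 9.15, 0.930 and 0.619 CPM after normalization, with no overlap (log2 fold change -3.48 ± 0.32 (SE), adjusted p = 0.00439). A Tubb3 UMI was found in 5.64% and 6.74% of WT cells. No Cre UMI was found in any mouse, and 0 of 1484 Tubb3-/- cells allows a share of cells with a UMI of up to 0.202%, counting error only. Tubb3 (chr8:123411424-123422015) overlaps the gene model Gm20388 on the same strand.

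Genotypes were compared in a fit without a term for the replicate number. Of 13284 genes tested on UMIs summed per mouse, 124 (0.933%) passed an adjusted p of 0.05, of which 77 rose (0.58%) and 47 fell (0.354%) in Tubb3-/- cells. At an unadjusted p under 0.05 there were 1629 genes. Values of the genotypes did not overlap in 5653 genes (42.6%), as can happen often with 2 mice a group. The number of calls changed with the choice of cells. With cells of at least 10 Myh11 UMIs 19 genes passed, with cells that held a Pdgfra UMI left out 19, with cells thinned to 5000 UMIs 24, with doublets left out 68, without WT 1 57 (37 higher, 20 lower), and in the whole-cell libraries alone, with 31 to 60 cells, 1. It rose to 232 without WT 2, 388 without Tubb3-/- 1, 418 without Tubb3-/- 2, 767 with no filter on low counts and 896 with the replicate number, which goes with sex, as a block. Of the 124 calls, 18 were kept with the Myh11 limit, 12 without Pdgfra-positive cells and 0 in the whole-cell libraries alone. The direction was the same in 124 of 124 called genes with the Myh11 limit, in 116 of 120 without Pdgfra-positive cells and in 62 of 70 in the whole-cell libraries. These cells are part of those that gave the calls, so nothing is read from the shared direction.

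Matrix genes were among the rises. Of 53 listed, all of them tested, 13 rose and 0 fell, against 0.58% and 0.354% of all genes tested. A fold change above 0 was found in 44 of them, with a median log2 fold change of 0.46 against 0.01 over all genes tested. Col1a1, the gene of the collagen I α1 chain, had 852 and 777 CPM in WT 1 and WT 2 and 1746 and 1359 CPM in Tubb3-/- 1 and 2 (log2 fold change 0.93 ± 0.13, adjusted p = 0.0158). The Tubb3-/- mice were the 2 highest. The same order held for Col3a1 (1548 and 1468 against 2478 and 2370 CPM, log2 fold change 0.68 ± 0.09, adjusted p = 0.0141). Fn1, the gene of fibronectin, had 567 and 430 CPM in WT and 1004 and 1013 CPM in Tubb3-/- cells (log2 fold change 1.01 ± 0.13, adjusted p = 0.0139). The glycoprotein gene Tnc (0.88 ± 0.10), the collagen genes Col1a2 (0.75 ± 0.11), Col5a2 (0.72 ± 0.11) and Col4a2 (0.54 ± 0.09), the crosslinking enzyme gene Loxl2 (0.70 ± 0.11), Sparc (0.66 ± 0.10) and the membrane protease gene Mmp14 (0.59 ± 0.10) made up the rest with Cthrc1, Col8a1 and Lum. Eln, the gene of elastin, had 2874 and 2077 CPM against 3758 and 3919 CPM and did not pass (adjusted p = 0.0836), nor did Mgp (adjusted p = 0.173).

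The 2 kinds of library did not give the same picture for collagen. Col1a1 had 826 and 825 CPM in the cells of WT and 1795 and 1425 CPM in those of Tubb3-/- enriched libraries, but 772 and 427 against 611 and 793 CPM in whole-cell libraries, where the genotypes overlapped. A Col1a1 UMI was found in 96.6% to 98.9% of the cells of each mouse and in 36.1% to 41.0% of immune cells. In Pdgfra-positive fibroblasts of the enriched libraries (at least 3 Pdgfra UMIs, no Myh11 UMI), Col1a1 had 2758 and 1747 CPM in WT and 4052 and 3788 CPM in Tubb3-/- mice. The share of the cells with a Pdgfra UMI was higher in both Tubb3-/- enriched libraries than in both WT ones. At least 3 Pdgfra UMIs, the Pdgfra limit set for fibroblasts, were found in 11.0% and 10.2% of these Tubb3-/- cells and in 6.87% and 8.84% of the WT ones. The median of UMIs per cell was also higher in the Tubb3-/- enriched libraries (13025 and 12281 against 10846.5 and 10694), and these shares were not compared at equal depth. The summed level of 12 fibroblast markers in the cells, 1664 and 1924 CPM in WT and 1993 and 1907 CPM in Tubb3-/- mice, overlapped between the genotypes, with Cthrc1 and Lum called. The part of fibroblast RNA in the matrix rise was not tested.

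Several of the largest rises were in genes that few of the cells carried. Thbs4, which encodes a matricellular thrombospondin, had 4.37 and 6.10 CPM in WT 1 and WT 2 and 50.01 and 32.4 CPM in Tubb3-/- 1 and 2 (log2 fold change 3.02 ± 0.26, adjusted p = 0.00299). The values were far apart, but a Thbs4 UMI was found in 4.81% and 7.37% of WT and in 9.11% and 8.31% of Tubb3-/- cells. The Tubb3-/- cells had the higher medians of UMIs, as given above. Cthrc1, a secreted protein of injury-activated fibroblasts, had 18.3 and 15.6 CPM against 81.0 and 65.1 CPM (2.10 ± 0.14, adjusted p = 0.000882). The 5% of cells with most Cthrc1 UMIs held 85.3% and 82.2% of its UMIs in the Tubb3-/- mice, against 45.9% and 52.2% in the WT mice. Piezo2, a mechanically gated channel, had 10.6 and 10.0 CPM against 48.3 and 39.4 CPM (2.09 ± 0.14, adjusted p = 0.000882). Spp1, the gene of osteopontin, had 108 and 122 CPM against 309 and 599.8 CPM (1.98 ± 0.26, adjusted p = 0.0141), and was found in 66.3% to 74.7% of the cells but also in 64.1% to 65.0% of immune cells.

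The remaining rises in this ordering were the activin inhibitor follistatin (Fst, log2 fold change 2.03 ± 0.20), the adhesion protein gene Kirrel3 (1.86 ± 0.30), haptoglobin (Hp, 1.75 ± 0.14), the short-chain collagen Col8a1 (1.71 ± 0.18), the chondroitin sulfotransferase Chst11 (1.52 ± 0.20), the secreted protein genes Scube1 (1.51 ± 0.20) and Cilp (1.45 ± 0.20), and lumican (Lum, 1.43 ± 0.20). Over the 12 largest rises, the top 5% of cells held a median of 87.2% of a gene's UMIs in Tubb3-/- mice and 80.1% in WT mice. Over the 12 largest falls it was 61.1% and 54.0%. A gene carried by 5% of the cells or fewer has 100% by this measure, so it depends on how many cells carry a gene. Rises and falls were not matched for that. Of the 12 rises, 5 passed with at least 10 Myh11 UMIs (Cthrc1, Piezo2, Spp1, Hp and Col8a1), 1 without Pdgfra-positive cells (Lum), where Spp1 (-0.045) and Hp (-0.34) turned in direction without passing, and 0 in thinned cells, where 923 genes had an unadjusted p under 0.05 and 24 passed.

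**Figure D3:**
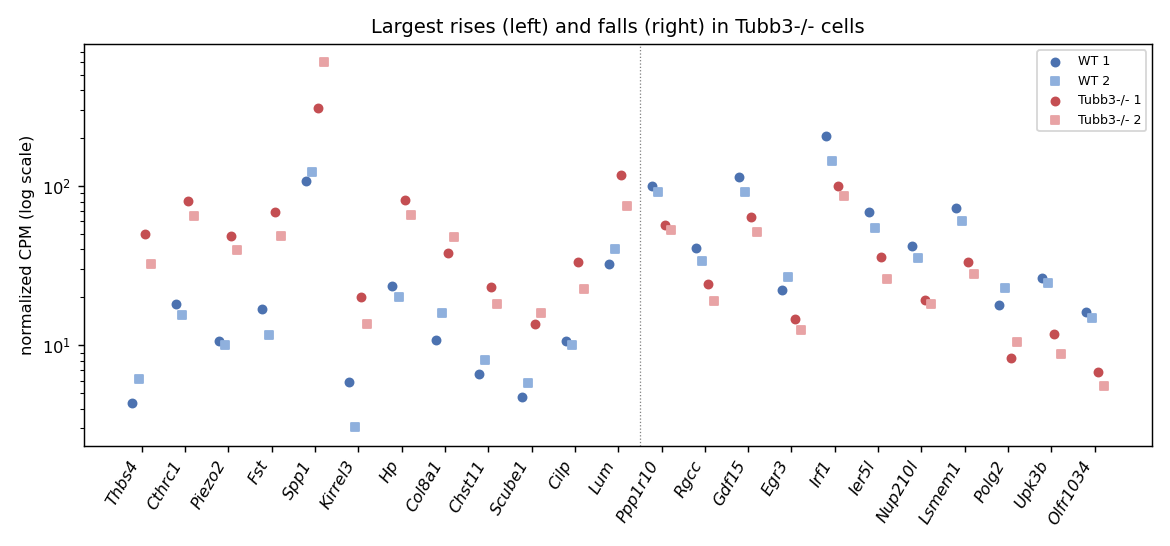
Normalized CPM (log axis) of the 12 largest rises (left of the dotted line) and of the large falls named in the text (right) in each mouse; blue marks WT, red Tubb3-/-, circles replicate 1 and squares replicate 2. The red points lie above both blue points for every rise, such as Thbs4 with 50.01 and 32.4 against 4.37 and 6.10, and below them for every fall, such as Irf1 with 99.5 and 86.7 against 205 and 144.

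Growth factor genes were also among the rises. Igf1, which drives growth and matrix production, had 97.8 and 114 CPM in WT 1 and WT 2 and 210.3 and 224 CPM in Tubb3-/- 1 and 2 (log2 fold change 1.04 ± 0.10, adjusted p = 0.00568), with no overlap. Ltbp2, a microfibril protein of the latent TGF-β-binding family, had 52.9 and 69.0 CPM against 136 and 137 CPM (1.17 ± 0.12, adjusted p = 0.00568). Of 24 listed genes of the renin-angiotensin system and of growth factors, Igf1, Fst, Ace (0.95 ± 0.12) and Pdgfrl (0.57 ± 0.10) rose and 0 fell, with a median of 0.16. Over all genes tested, 0.58% rose and 0.354% fell. The pericyte marker Ndufa4l2 rose as well (0.87 ± 0.12, adjusted p = 0.0158), alone among 14 pericyte markers, whose median was 0.04. The summed level of these markers was 1292 and 1310 CPM in WT and 1531 and 1546 CPM in Tubb3-/- mice, with no overlap, and the part of pericyte RNA was not tested.

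Cell cycle genes were carried by few of the cells. Of 30 listed genes, Mki67 and Prc1 rose, 0 fell and 29 had a fold change above 0, with a median of 1.26. Over all genes tested, 0.58% rose and 0.354% fell, and the median was 0.01. Mki67, the gene of the proliferation antigen Ki-67, had 3.10 and 1.86 CPM in WT and 15.1 and 13.1 CPM in Tubb3-/- mice (log2 fold change 2.45 ± 0.25, adjusted p = 0.00568). Cells with at least 5 UMIs of the list numbered 40 of 727 and 19 of 475 in WT and 60 of 834 and 43 of 650 in Tubb3-/- mice, or 5.50%, 4.0%, 7.19% and 6.62%. After thinning they numbered 4, 2, 10 and 8 cells, or 0.565%, 0.431%, 1.22% and 1.26%. Both Tubb3-/- mice were above both WT mice either way, on counts of 10 cells or fewer after thinning. A UMI of Mki67 was found in 2.20% to 2.77% of the cells and in 8.62% to 13.8% of immune cells. Top2a, a topoisomerase of dividing cells, had 5.63 and 1.19 against 21.1 and 13.1 CPM and did not pass (adjusted p = 0.0601), nor did Foxm1 (1.03 and 0.17 against 2.40 and 1.96 CPM, adjusted p = 0.269).

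The falls included transcription factors and cytokine genes. Of the largest falls, 2 passed with at least 10 Myh11 UMIs and 10 did not, and the counts were the same without Pdgfra-positive cells. With doublets left out, 6 passed and 6 did not. In thinned cells 6 passed, 5 did not and 1 turned in direction without passing. Irf1, a transcription factor of the interferon response, had 205 and 144 CPM in WT 1 and WT 2 and 99.5 and 86.7 CPM in Tubb3-/- 1 and 2 (log2 fold change -0.91 ± 0.16, adjusted p = 0.0344). It was 1 of 39 tested genes of that list to pass, whose median was -0.01. Il6, the cytokine gene, had 129 and 120.5 CPM against 78.5 and 70.6 CPM (-0.74 ± 0.10, adjusted p = 0.0141), and the adhesion molecule gene Icam1 78.0 and 64.2 against 46.4 and 41.3 CPM (-0.70 ± 0.12, adjusted p = 0.0333). None of the 3 overlapped between the genotypes, nor did 42.6% of all genes tested. For Irf1 this was a condition of being named among the largest falls, so nothing is read from it. In the whole-cell libraries alone Il6 turned in direction (27.7 and 17.6 against 13.8 and 115 CPM, log2 fold change 1.21) without passing. Of 30 immediate-early and heat shock genes, Egr3 fell (-0.84 ± 0.15, adjusted p = 0.0452) and 28 had a fold change below 0, with a median of -0.32. Over all genes tested, 0.354% fell and the median was 0.01. Fos had 5731 and 4785 against 4457 and 3954 CPM (adjusted p = 0.281) and Egr1 2379 and 2007 against 1643 and 1490 CPM (adjusted p = 0.0852), and neither passed.

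Ppp1r10, which encodes a nuclear targeting subunit of protein phosphatase 1, had 99.6 and 92.0 CPM in WT and 56.8 and 53.3 CPM in Tubb3-/- mice (log2 fold change -0.80 ± 0.09, adjusted p = 0.00923) and passed with at least 10 Myh11 UMIs, without Pdgfra-positive cells and in thinned cells, as did Tubb3 and Mki67. In whole-cell libraries the cells had 89.0 and 83.9 against 48.1 and 42.6 CPM, and in enriched ones 96.7 and 94.4 against 56.3 and 55.4 CPM, with no overlap in either. These libraries hold the cells that gave the call, and 42.6% of all genes tested did not overlap in the sums, so nothing is read from this. Fibroblasts of the enriched libraries had 87.6 and 77.6 against 51.7 and 54.2 CPM. The membrane protein gene Lsmem1 (-1.12 ± 0.13), the nucleoporin-like gene Nup210l (-1.06 ± 0.12), Ier5l (-0.99 ± 0.16), the stress cytokine gene Gdf15 (-0.83 ± 0.13), Rgcc (-0.80 ± 0.14), which encodes a cell cycle regulator, the mitochondrial polymerase subunit gene Polg2 (-1.12 ± 0.19) and the olfactory receptor gene Olfr1034 (-1.32 ± 0.18) were other large falls. Upk3b, a uroplakin of mesothelial cells, fell by 1.30 ± 0.16 on the log2 scale. It had no UMI in these cells in any whole-cell library, and the summed level of 6 mesothelial markers in the cells was 139, 109, 90.7 and 67.2 CPM in WT 1, WT 2, Tubb3-/- 1 and Tubb3-/- 2. The summed level of 12 epithelial markers was 487, 378, 320.5 and 320 CPM in the same order. The part of RNA from these cell types was not tested.

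Contractile genes did not pass in either direction. Of 30 tested, 0 passed in edgeR's quasi-likelihood test, and 26 had a fold change below 0, with a median of -0.14. Over all genes tested 0.933% passed and the median was 0.01, so 0 calls among 30 is near that share. Acta2 had 16052 and 14334 CPM in WT 1 and WT 2 and 14394 and 12978 CPM in Tubb3-/- 1 and 2 (log2 fold change -0.15 ± 0.10, adjusted p = 0.622). The values of Acta2 overlapped between the genotypes, as did those of Tagln (-0.09 ± 0.12, adjusted p = 0.841), Des (-0.08 ± 0.09, adjusted p = 0.817) and Actg2 (0.11 ± 0.16, adjusted p = 0.860). Among 28 tested receptor genes, Chrm2, a muscarinic acetylcholine receptor, fell (79.7 and 77.1 against 41.6 and 51.1 CPM, -0.76 ± 0.11, adjusted p = 0.0222), and the median was -0.06. Ednrb had 165 and 133 against 103 and 105 CPM without passing (-0.52 ± 0.11, adjusted p = 0.0765). Within whole-cell libraries, Chrm2 had 65.3 and 105 against 88.2 and 97.8 CPM, with overlap.

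**Figure D4:**
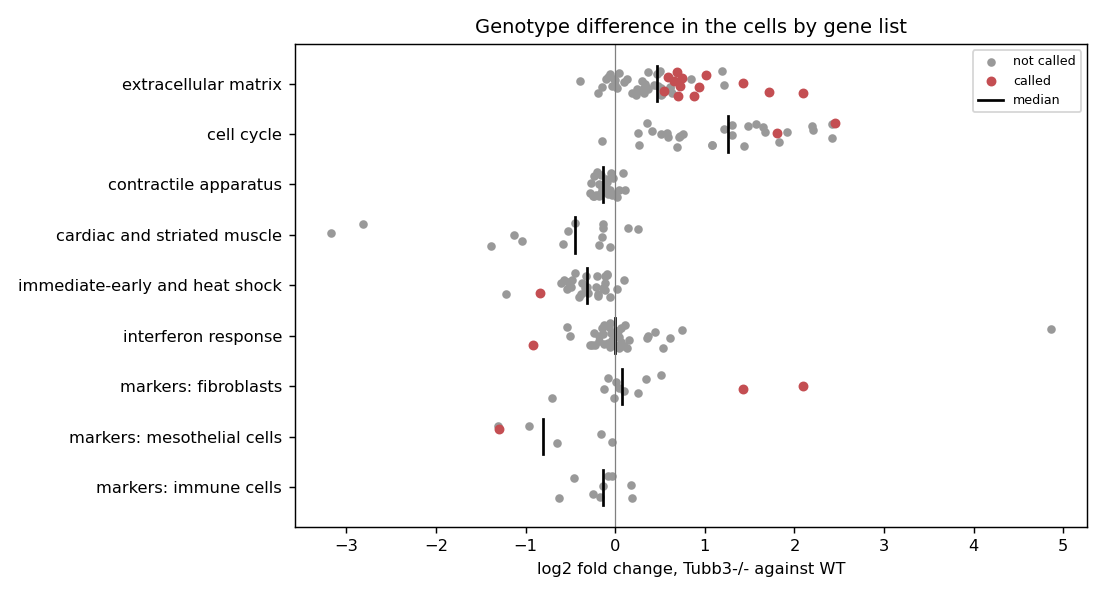
Log2 fold change of Tubb3-/- against WT in these cells for the tested genes of 9 lists; each point is a gene, red where it passed an adjusted p of 0.05, and the black bar is the median of the list. The bar lies at 0.46 for extracellular matrix, 1.26 for the cell cycle, -0.14 for the contractile apparatus and -0.80 for mesothelial markers.

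Of the other pathways, Id2, a target of BMP signalling, fell (287 and 315 against 206 and 205 CPM, log2 fold change -0.55 ± 0.09, adjusted p = 0.0333), and with Ltbp2 it was the only change among 31 genes of TGF-β and BMP signalling. Notch (11 genes tested), ion channels and calcium handling (25), the cyclic nucleotide pathway (22), smooth muscle transcription factors (34) and cardiac and striated muscle genes (15) had 0 genes that passed, with medians of -0.12, -0.11, -0.03, -0.01 and -0.45. Over all genes tested 0.933% passed, so 0 in lists of these sizes is near that share and nothing is read from it. Of 12 tubulin genes, Tubb3 was the one that passed. Of the genes that the study named in mural cells, Klf4, Ccl2, Bmpr2, Rgs5, Col18a1 and Cxcl10 did not pass. Cxcl10, an angiostatic chemokine, had 119 and 59.8 CPM in WT and 67.3 and 56.8 CPM in Tubb3-/- mice (adjusted p = 0.434), with overlap, and Ccl2 38.6 and 27.5 against 23.0 and 12.7 CPM (adjusted p = 0.172).

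Genes of the rule are given without a test. Actc1 had 3261 and 3413 CPM after normalization in WT and 3204 and 2580 CPM in Tubb3-/- mice, Timp4 253 and 243 against 243 and 291 CPM, Sncg 264 and 206 against 298 and 266 CPM, P2rx1 123 and 99.5 against 117 and 92.3 CPM, and Tcap 211 and 153 against 137 and 146 CPM. These genes chose the cells, and nothing is read from their overlap. Sost, a gene of sum B, had 59.0 and 51.9 CPM against 30.2 and 33.8 CPM.

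The genotype difference was also compared with that in the other Myh11-high cells of the same mice. Of 14546 genes, 5 (0.0344%) had a difference that passed an adjusted p of 0.05 in edgeR's quasi-likelihood test of the interaction, and 1058 had an unadjusted p under 0.05. The 5 genes were Cxcl9, Chrna7, Ptn, Efna5 and Ptgs2, and for all of them the fold change was higher in these cells. No matrix, contractile or cell cycle gene passed. The matrix rises were thus not shown to differ from those in other smooth muscle cells, and the median interaction of its 53 genes was 0.08 on the log2 scale.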

How the data were processed

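Lung cells of 2 WT and 2 Tubb3-/- mice were studied in 2 pools of 4 tagged libraries each. The authors deposited counts, whole-number UMIs per gene and cell, made with Cell Ranger 7.1.0 on mm10, to which the Cre sequence was added, and assigned to mice by tag, without normalization or correction for background RNA. Between 99.9% and 100% of the cells carried the tag of their label. The limits on genes and mitochondrial UMIs were those of the study. Doublets were marked per pool with Scrublet in scanpy 1.11.5 (0 of the cells in whole-cell libraries, 32 to 54 per mural cell-enriched library) and kept in the main analysis.

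For each mouse, UMIs of all its cells from both libraries were added up. The mouse was the replicate (n = 2 per genotype). The quasi-likelihood test of edgeR 4.0.16 (R 4.3.3) was run on these sums after filterByExpr and TMM normalization, and p-values were adjusted by Benjamini-Hochberg across every tested gene, with a threshold of 0.05. Every adjusted p printed comes from such a fit, and folds are Tubb3-/- over WT with their SE. The p-values measure the spread between 2 mice of a genotype. The pool and interaction tests had the mouse as a block. An exact permutation test (two-sided) served for shares. CPM set against other smooth muscle groups are per gene UMIs with a pseudocount of 1 CPM in ratios. CPM by genotype, and those of the pool comparison, are TMM-normalized, and values by library and summed marker levels are not. The tests were checked on simulated counts. Alternatives were DESeq2 1.42.0, limma 3.58.1 (voom), DESeq2's size factors, no filter, a replicate block, each mouse left out and stricter rules for the cells. The alternatives with no cell with a Pdgfra UMI and with whole-cell libraries alone were added after seeing the data.

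The cells and the gene lists were chosen with earlier results of these data known. Named were the genes of the rule, genes the study names for mural cells, the 12 largest rises and falls among called genes averaging 10 CPM or more without overlap, in each list the called members and up to 4 others with the highest means, and, against the other groups, the 20 leading and 12 lowest genes. Other genes singled out are marked, and some genes that the rule names are not reported here. Some named loci overlap another gene, such as Polg2, Fst, Fn1, Irf1, Spp1, Lsmem1, Col1a2 and Col3a1. Their counts are uncertain to that extent, since whether counting used strand is not stated.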

Additional observations from a re-analysis of the deposited data

Results flagged for a closer look

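A test of the difference itself found 5 genes whose genotype difference was not the same in these cells as in the other Myh11-high cells of the same mice. The log2 fold change of Tubb3-/- over WT was higher in these cells by 7.49 ± 0.68 (SE) for the chemokine gene Cxcl9 (adjusted p = 0.0115), by 1.92 ± 0.20 for the nicotinic receptor gene Chrna7 (adjusted p = 0.0210), by 1.56 ± 0.20 for the growth factor gene Ptn (adjusted p = 0.0465), by 0.97 ± 0.11 for the ephrin gene Efna5 (adjusted p = 0.0210) and by 0.69 ± 0.09 for the prostaglandin synthase gene Ptgs2 (adjusted p = 0.0465), all in edgeR's quasi-likelihood test. For Cxcl9 the cells held 5 and 1 UMIs in WT and 61 and 199 UMIs in Tubb3-/- mice, in 0.688%, 0.211%, 0.839% and 2.15% of the cells, and the other Myh11-high cells had 7.34 and 1.37 CPM in WT and 0.734 and 0.754 CPM in Tubb3-/- mice. A Cxcl9 UMI was found in 1.05% to 2.12% of immune cells of the whole-cell libraries, at or above the share in these cells in all mice but Tubb3-/- 2. Ptn had a log2 fold change of 1.55 in these cells and 0.02 in the others, and Chrna7 1.44 and -0.46, with UMIs in 2.89% to 6.62% and 3.30% to 4.44% of the cells. For Efna5 and Ptgs2 the difference came with a fall in the other cells, by 0.63 and 0.72 on the log2 scale, against 0.32 and -0.06 in these cells. Without Tubb3-/- 1, 2 of the 5 genes passed.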

How the results depend on the processing

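The number of genes called between genotypes, 124, moved with the choice of cells and of fit. It was 767 with no filter on low counts, 68 with doublets left out, 82 with a sum A of at least 5, 19 with at least 10 Myh11 UMIs and 24 in thinned cells, and it ranged from 57 (without WT 1) to 418 (without Tubb3-/- 2) with a mouse left out, where the lone mouse is assumed to vary like the other group. In the analyses added after seeing the data it was 19 without cells holding a Pdgfra UMI and 1 in the whole-cell libraries alone. DESeq2 called 144, limma 95 and the enriched libraries alone 88. With the replicate block the count was 896. The labels do not say that equal numbers pair mice, with 2 pairs the replicate differences of the genotypes correlated at 0.303 over 8638 genes, and the replicates differ in sex. Direction turned for 6 named genes, none of them called there: Spp1 (-0.045) and Hp (-0.34) without Pdgfra-positive cells, Upk3b (0.26) in thinned cells, and Chrm2 (0.087), Il6 (1.21) and Ace (-0.35) in the whole-cell libraries. The cause was not tested. The share of Myh11-high cells differed by -4.05 to 1.54 percentage points with a mouse left out and turned to 1.54 without Tubb3-/- 2. The interaction called 291 genes without a filter, 15 against the other 2 groups alone and 5 to 151 with a mouse left out, and the pool comparison 780 without a filter and 151 to 574 with a mouse left out.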
